A study of Mus musculus with 12 samples.

Results

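The 53 genes described here are a fixed list of cell cycle and DNA replication genes, found by symbol among the 43280 rows of the deposited table. All 53 were present, and all 53 passed the filter on low values that 12086 genes of the table passed (2 or more libraries that reached 1 CPM, the reads of a gene scaled to a common library size). By their textbook role 23 of them were placed in S phase, 28 in mitosis, and Ccnd1 and Cdkn1a, which act on the G1 kinases, outside both. The RNA came from bone marrow-derived macrophages (BMDM), grown from the marrow of C57BL6 mice with mouse M-CSF at 20 ng/ml. Cells of wild type (wt) and of Treml4-/- mice, which lack Treml4, a receptor of the TREM family, in the whole body, were left unstimulated with vehicle (M0) or were given LPS (lipopolysaccharide, from the outer membrane of Gram-negative bacteria) at 100 ng/ml for 8 h (M1-8 h) or 12 h (M1-12 h). Each of these 6 groups had 2 biological replicates, which gave 12 libraries. The labels do not say how many animals gave the marrow of a replicate, or for how many hours the M0 cells had vehicle.

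Dividing cells copy their DNA in S phase and part the copies in mitosis. The MCM helicase is loaded onto replication origins with the help of Cdc6 and Cdt1, is switched on by Mcm10, Cdc45 and the GINS complex, and is followed by polymerases held on DNA by the clamp Pcna, while ribonucleotide reductase and thymidylate synthase supply the nucleotides. Entry into mitosis is driven by Cdk1 with cyclins A and B, and the anaphase-promoting complex with Cdc20 ends it. M-CSF is known both to turn marrow cells into macrophages and to make them divide, and LPS is known to stop the division of such cultures. S phase genes are known targets of E2F factors, and many mitotic genes are known to be read through a CHR element and CCAAT boxes near their start.

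The promoters of 6 members are shown because they stand for the courses described below, namely the strong falls of Cdk1, Cdc20 and Top2a, the weaker fall of the S phase gene Mcm6 and the rises of Ccne1 and Cdkn1a. Each run is the 100 bases just before the RefSeq start, read 5′ to 3′ on the strand of the gene, in build GRCm38. Capitals mark the letters of a CHR element (TTTGAA or TTCGAA), an E2F site (the letters TTCCCGC, the letters TTGGCGC, the letters TTCGCGC or the letters TTGCCGC) or a CCAAT box (CCAAT), in either orientation. In Mcm6 a forward and a reverse E2F site overlap in 1 capital run.
Cdk1 (chr10:69352913-69353012, minus strand): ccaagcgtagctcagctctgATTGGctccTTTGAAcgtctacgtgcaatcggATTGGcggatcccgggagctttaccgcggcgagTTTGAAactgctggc
Cdc20 (chr4:118437344-118437443, minus strand): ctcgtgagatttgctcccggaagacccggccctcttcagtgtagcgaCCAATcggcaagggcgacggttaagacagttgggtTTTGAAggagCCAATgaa
Top2a (chr11:99024190-99024289, minus strand): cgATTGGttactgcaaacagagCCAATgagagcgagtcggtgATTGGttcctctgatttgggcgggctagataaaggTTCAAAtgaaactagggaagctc
Mcm6 (chr1:128359706-128359805, minus strand): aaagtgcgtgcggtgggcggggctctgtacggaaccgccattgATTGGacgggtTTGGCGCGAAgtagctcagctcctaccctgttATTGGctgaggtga
Ccne1 (chr7:38107491-38107590, minus strand): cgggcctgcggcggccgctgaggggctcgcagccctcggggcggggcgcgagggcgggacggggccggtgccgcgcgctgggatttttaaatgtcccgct
Cdkn1a (chr17:29090879-29090978, plus strand): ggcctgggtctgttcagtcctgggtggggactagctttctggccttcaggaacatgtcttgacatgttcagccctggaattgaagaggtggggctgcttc

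RefSeq promoters were matched by symbol for 44 of the 53 members, all but Ccnd1, Gins2, Ccne2, Tpx2, Gins1, Mcm4, Aurkb, Ccna2 and Kif20a. They were 19 of S phase and 24 of mitosis among them, and the entry listed first was used where a symbol had several. In the 250 bases before the start, CHR letters stood in 10 of 24 mitotic and 3 of 19 S phase promoters, beside 17.4% of the 27025 promoters of the table. E2F letters stood in 4 of 24 mitotic and 6 of 19 S phase promoters, beside 7.97% of all, and CCAAT letters in 21 and 12, beside 34.5%. When the 50 bases after the start were added, a window chosen after the counts were seen, CHR letters were found in 20 of 24 mitotic and still 3 of 19 S phase promoters (19.4% of all), and E2F letters in 5 and 11 (9.69% of all). These are matches of letters, not measured binding sites.

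Reads counted on genes ranged from 48008751 to 58500792 per library, so that 1 read was worth 0.0171 to 0.0208 CPM. Treml4 had 198 to 663 reads in the 6 wt libraries and 0 in the 6 Treml4-/- libraries, as the labels say. The macrophage markers fixed for the label (7 of 8 were found by symbol) summed to 8191 to 25702 CPM in every library, while T cell markers reached at most 0.0386 CPM in sum. At M0, markers of neutrophils and their precursors summed to 38.8 to 127 CPM and B cell markers to 4.39 to 6.48 CPM. Differences are on the log2(CPM + 1) scale and are given with their standard error (SE). This scale understates the change of genes that end below 1 CPM. A gene was called when its adjusted p in limma was under 0.05 and its change was 1.4-fold or more. LPS moved the whole table on this scale, with a median log2 difference over all genes tested of -0.72 at 8 h and -0.76 at 12 h. After trimmed mean (TMM) scaling, which assumes that most genes do not change, these medians were -0.06 and 0.00. Counts of calls are therefore given beside the share of all genes called, and the TMM value of a member is given where its call or direction against M0 changed. In bulk RNA, fewer dividing cells and less RNA of these genes per cell cannot be told apart.

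One library stood apart before any comparison. In wt M0 replicate 2, 50 of the 53 members were below all 3 other M0 libraries, whereas 49.2% of the genes tested were. All 28 mitotic and 22 of the 23 S phase members were among the 50, and the exceptions were E2f1, Ccnd1 and Cdkn1a. Its mitotic members summed to 1877 CPM against 3496 to 3523 CPM in the other 3 M0 libraries, which is 53.4% of their mean, and its S phase members to 871 CPM against 1226 to 1321 CPM, 68.1% of their mean. Markers of neutrophils and their precursors, such as Mpo and Elane, summed to 38.8 CPM in it and to 101 to 127 CPM in the other M0 libraries, and markers of stem and progenitor cells to 6.37 against 8.02 to 8.60 CPM. Macrophage markers went the other way and summed to 25702 CPM in it. They summed to 21250.5 CPM in wt M0 replicate 1 and to 18870 to 19096 CPM in the Treml4-/- M0 libraries. Of the 8 neutrophil markers, 7 reached 1 CPM in some library, while Ly6g, which marks mature neutrophils, stayed at or below 0.131 CPM. The part of these markers in the lower values was not tested. Counts of members called and median differences that use M0 were therefore also taken without this library. Sums, percentages of M0 levels, overlaps of libraries and the other gene lists, as given here, include it.

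**Figure D1:**
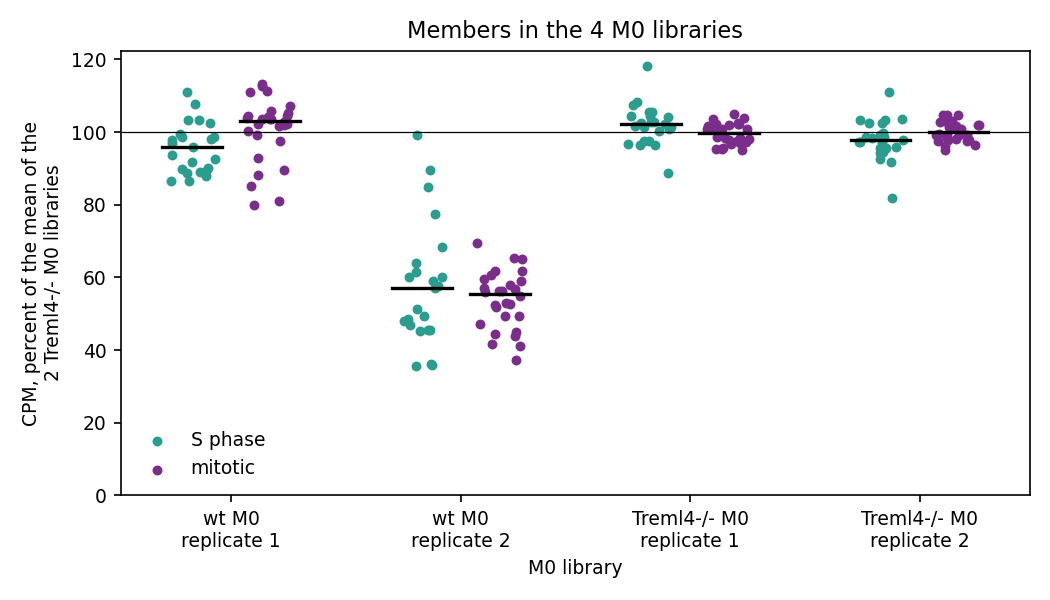
CPM of each S phase (green) and mitotic (purple) member in the 4 M0 libraries, as percent of the mean of the 2 Treml4-/- M0 libraries, with a black bar at the median. The medians of wt M0 replicate 2 lie at 57.1% for S phase and 55.3% for mitotic members, and those of wt M0 replicate 1 at 95.9% and 103%.

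LPS brought down nearly all members within 8 h, the mitotic ones far more than those of S phase. At 8 h, 47 of 53 members were called lower and 3 higher, over both genotypes, while 59.8% of all genes were called lower and 17.1% higher. The fall was deep for most mitotic members: 25 of 28 were called lower by at least 8-fold, against 3 of 23 S phase members and 3.41% of all genes (a limit chosen after the values were seen). Members with few CPM at M0, such as Dut and Cdc6, could not reach this limit on the log2(CPM + 1) scale. By CPM, 25 of 28 mitotic and 4 of 23 S phase members kept under 10% of their M0 level at 8 h. The median log2 difference was -4.57 for mitotic and -1.64 for S phase members. With TMM scaling 42 members were called lower and 5 higher, while 32.2% of all genes were called lower and 30.4% higher, and the medians were -3.88 and -0.94. Without wt M0 replicate 2, 48 members were called lower and 3 higher, and the medians were -4.78 and -1.80. The 42 were 15 S phase and 27 mitotic members. The distance between S phase and mitotic members is a description, and no test was made of it. Marker sums moved with LPS as well: the stem and progenitor list (2 of its 5 genes reached 1 CPM) went down from between 6.37 and 8.60 CPM at M0 to between 2.14 and 2.79 CPM at M1-8 h and between 0.959 and 1.27 CPM at M1-12 h, and the macrophage list from between 18870 and 25702 CPM to between 8521 and 11197 CPM and between 8191 and 8986 CPM. Lyz2 and Csf1r made up most of the macrophage sum, and 3 of its 7 genes found had a higher mean at M1-8 h than at M0, namely Fcgr1 (63.0 and 1193 CPM at M0 and M1-8 h), Mertk (33.3 and 275 CPM) and Itgam (940.3 and 1166 CPM). The dendritic list (2 of its 5 genes reached 1 CPM) went up from between 0.629 and 1.04 CPM at M0 to between 6.12 and 9.23 CPM at M1-8 h and between 4.37 and 8.06 CPM at M1-12 h. Its rise came from Xcr1 (means of 0 and 5.33 CPM at M0 and M1-8 h) and Clec9a (0.112 and 1.83 CPM). Flt3 went down (0.519 and 0.129 CPM), and Zbtb46 and Siglech stayed below 0.34 CPM in every library. The neutrophil list overlapped between M0 (38.8 to 127 CPM) and M1-8 h (61.0 to 97.5 CPM). Within it Mpo went down (means of 20.1 and 5.35 CPM at M0 and M1-8 h) and S100a8 went up (18.7 and 38.8 CPM). The B cell list went down from between 4.39 and 6.48 CPM at M0 to between 0.204 and 0.686 CPM at M1-8 h. Most of its sum at M0 was Cd79b (mean of 5.31 CPM). The part of these marker lists in the result was not tested.

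At 12 h, 48 members were called lower and 3 higher, beside 60.3% and 16.3% of all genes. The medians were -5.50 for mitotic and -1.79 for S phase members, and 27 of 28 mitotic and 7 of 23 S phase members were called lower by at least 8-fold, beside 4.03% of all genes. By CPM, 27 of 28 mitotic and 10 of 23 S phase members kept under 10% of their M0 level at 12 h. With TMM scaling 44 were called lower and 4 higher, beside 31.6% and 33.7% of all genes, and the medians were -4.91 and -1.06. Without wt M0 replicate 2, 49 were called lower and 3 higher, and the medians were -5.72 and -2.14. All 4 M1-12 h libraries were below all 4 M0 libraries for 48 members and above them for 3, of 53, beside 66.6% and 20.0% of the genes tested.

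The 28 mitotic members summed to 1877 to 3523 CPM at M0, to 196 to 265 CPM at M1-8 h and to 169 to 175 CPM at M1-12 h, in sums to which genes with many reads add most. Without Tpx2 the sums were 92.6 to 161 CPM at M1-8 h and 37.6 to 50.1 CPM at M1-12 h, so that Tpx2 made up most of what remained at 12 h. The 23 S phase members summed to 871 to 1321 CPM at M0, 299 to 416 CPM at M1-8 h and 311 to 351 CPM at M1-12 h, with Pcna holding 154 to 184 CPM at M1-8 h and 168 to 208 CPM at M1-12 h. The mitotic sum was 2.16 to 2.87 times the S phase sum at M0, 0.563 to 0.698 times at M1-8 h and 0.482 to 0.557 times at M1-12 h, with no overlap between M0 and LPS libraries. The median mitotic member kept 3.25% of its M0 CPM at 8 h and 0.878% at 12 h, and the median S phase member 23.8% and 12.3%.

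**Figure D2:**
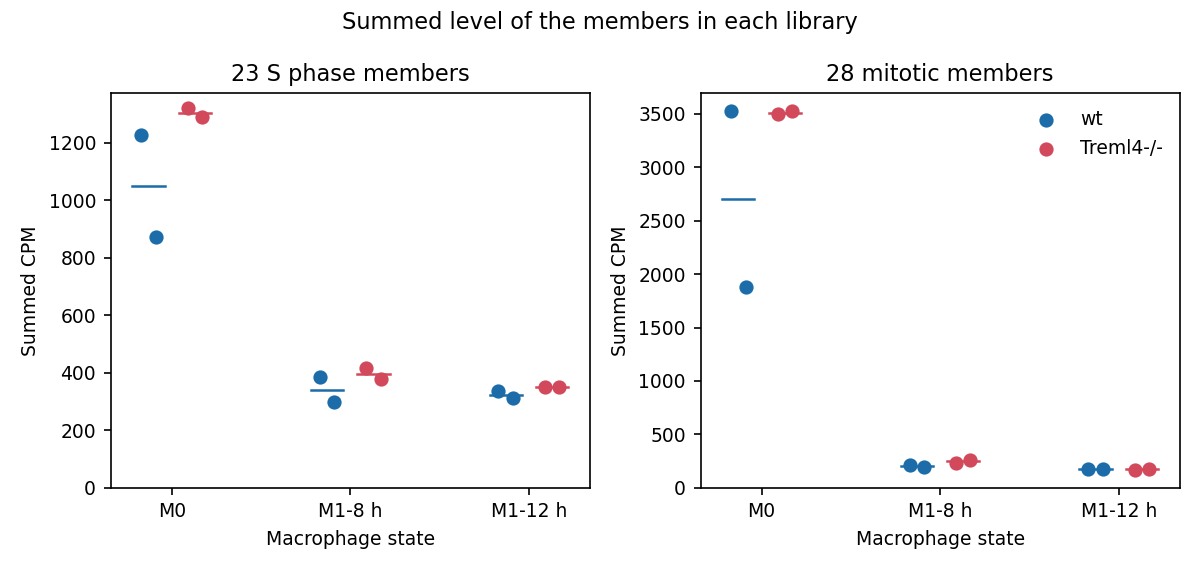
Summed CPM of the 23 S phase (left) and 28 mitotic members (right) in each library, wt in blue and Treml4-/- in red, with a line at the mean of the 2 replicates. The mitotic sums fall to 196 to 265 CPM at 8 h and to 169 to 175 CPM at 12 h, and the lowest M0 point in both panels is wt M0 replicate 2.

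**Figure D3:**
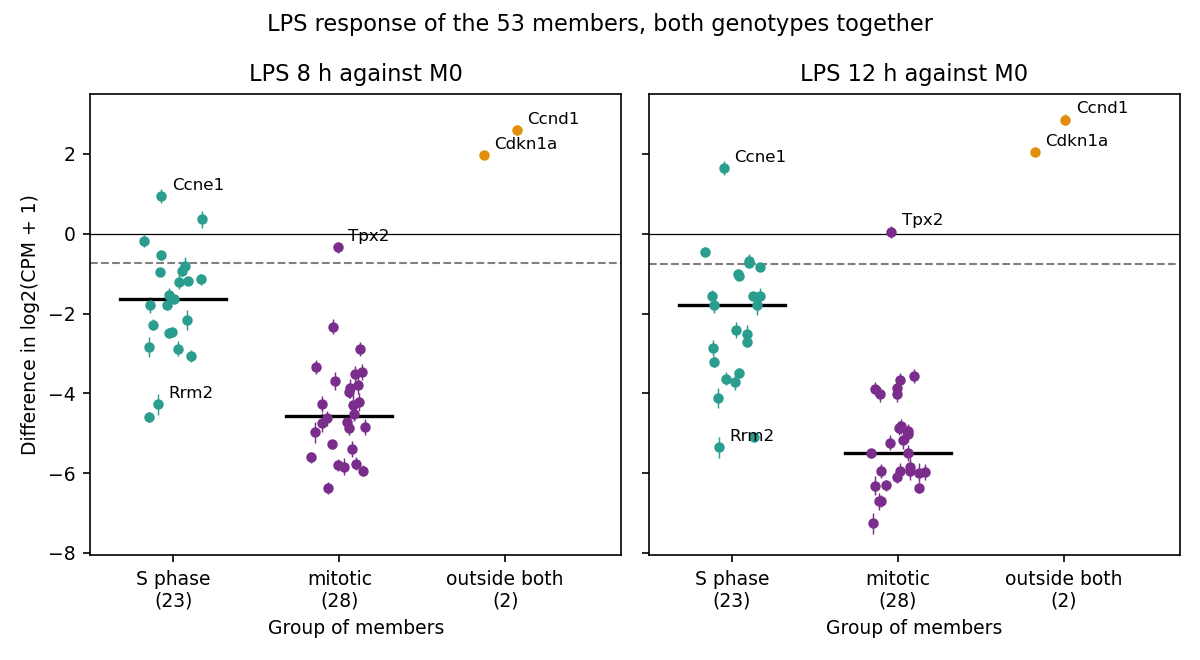
Difference in log2(CPM + 1) between LPS and M0 for each of the 53 members, with its SE, over both genotypes. Black bars are the medians of S phase (-1.64 and -1.79) and mitotic members (-4.57 and -5.50), and the dashed line is the median of all genes tested (-0.72 and -0.76). Ccne1, Ccnd1 and Cdkn1a lie above 0 at both times, and Tpx2 lies apart from the other mitotic members.

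The values below are CPM in the order wt replicates 1 and 2, then Treml4-/- replicates 1 and 2. Of the 13 genes of origin licensing, the helicase and the clamp, 11 were called lower at 8 h and 13 at 12 h, with medians of -1.55 and -1.78. Mcm6 and Mcm7 are subunits of the helicase ring. Mcm6 measured 91.4, 64.4, 96.6 and 91.6 CPM in M0, 12.6, 5.87, 14.4 and 11.7 in M1-8 h and 4.26, 5.34, 6.52 and 6.18 in M1-12 h libraries. The 12 values fall into separate ranges for M0 and LPS, and the log2 differences were -2.89 ± 0.19 (SE, adjusted p = 3.31e-08) at 8 h and -3.72 ± 0.19 (SE, adjusted p = 3.4e-09) at 12 h. Mcm7 measured 51.8, 28.8, 62.7 and 54.1 CPM in M0, 5.07, 3.602, 5.45 and 5.21 in M1-8 h and 2.896, 3.06, 3.06 and 2.604 in M1-12 h libraries. Its libraries with LPS were all below M0, with differences of -3.07 ± 0.16 (SE, adjusted p = 4.8e-09) and -3.64 ± 0.16 (SE, adjusted p = 1.1e-09). Mcm7 shares 7.25% of its exon bases with Ap4m1 on the opposite strand. Among the other subunits Mcm2 kept 16.6% and Mcm3 27.4% of their M0 level at 8 h, and 6.34% and 7.06% at 12 h, while Mcm4 kept 42.9% and 30.9%, and Mcm5 42.1% and 17.03%. With TMM scaling Mcm4 and Mcm5 were not called at 8 h (-0.41 and -0.45).

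Mcm10, which helps to switch the loaded helicase on, took a course of its own. It measured 28.4, 12.9, 28.7 and 26.4 CPM in M0, 34.2, 20.8, 34.9 and 31.8 in M1-8 h and 5.74, 5.58, 5.98 and 6.805 in M1-12 h libraries. The M0 and M1-8 h libraries overlapped, and all 4 M1-12 h libraries were below both. The difference at 8 h was 0.36 ± 0.21 (SE, adjusted p = 0.121) and was not called, but it was called higher with TMM scaling (1.10), without wt M0 replicate 1 (0.63) and without wt M1-8 h replicate 2 (0.53). From 8 h to 12 h it fell by 2.14 ± 0.21 (SE, adjusted p = 6.62e-06). Cdc45, the partner of the active helicase, kept 23.2% and 7.001% of its M0 level, Cdc6 25.6% and 12.3%, and Gins1 23.8% and 23.5%.

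Cdt1, Pcna and Gins2 held the highest shares of their M0 level in this group at 12 h. Cdt1, which loads the helicase, measured 72.6, 70.2, 81.8 and 74.99 CPM in M0, 25.4, 20.98, 23.04 and 23.9 in M1-8 h and 46.99, 38.2, 36.2 and 44.8 in M1-12 h libraries. All 4 M1-12 h libraries were above all 4 M1-8 h libraries, a rise of 0.80 ± 0.09 (SE, adjusted p = 2.78e-05), and below M0 (-0.84 ± 0.09 SE, adjusted p = 4.26e-06), although this last difference was 0.037 and not called with TMM scaling. Pcna measured 301, 295, 339 and 356 CPM in M0, 159, 154, 184 and 168 in M1-8 h and 194, 168, 208 and 204 in M1-12 h libraries. It fell by 0.95 ± 0.06 (SE, adjusted p = 2.87e-08) at 8 h, and its difference at 12 h was -0.73 ± 0.06 (SE, adjusted p = 2.88e-07), but with TMM scaling these were -0.18, not called, and 0.16, also not called. Gins2 kept 86.4% and 59.1% of its M0 level and was called lower at 12 h only (-0.67 ± 0.16 SE, adjusted p = 0.00158), while TMM scaling turned both of its differences positive (0.53, called, and 0.15, not called). Gins2 shares 67.3% of its exon bases with Gse1 on the opposite strand, and the sources used here do not say whether counting used strand.

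The 4 genes of nucleotide supply were all called lower at both times, with medians of -2.67 and -3.41. Rrm2, the regulated subunit of ribonucleotide reductase, fell furthest and measured 56.9, 20.99, 58.5 and 57.5 CPM in M0, 1.84, 0.501, 1.76 and 1.68 in M1-8 h and 0.0767, 0.0992, 0.125 and 0.174 in M1-12 h libraries. No M1-12 h library had more than 10 reads of it, and the differences were -4.27 ± 0.26 (SE, adjusted p = 1.95e-08) and -5.36 ± 0.26 (SE, adjusted p = 2.62e-09). Its partner subunit Rrm1 measured 182, 88.2, 187 and 182 CPM in M0, 24.2, 11.03, 29.7 and 21.6 in M1-8 h and 6.73, 8.69, 8.37 and 7.93 in M1-12 h libraries. Both times were below M0 in all libraries (-2.85 ± 0.25 SE, adjusted p = 4.22e-07 and -4.11 ± 0.25 SE, adjusted p = 1.48e-08). Dut, which keeps uracil out of DNA, kept 5.09% and 2.095%, and the thymidylate synthase Tyms 54.01% and 11.96%. Tyms was -0.09 and not called at 8 h with TMM scaling.

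Of the 6 genes of the G1/S cyclins, E2F factors and checkpoint, 5 were called lower and 1 higher at 8 h, and 4 and 1 at 12 h. E2f2, an activator of S phase genes, kept 3.35% of its M0 CPM at 8 h and 2.06% at 12 h. It measured 126, 90.9, 119.8 and 115 CPM in M0, 3.79, 2.36, 4.63 and 4.32 in M1-8 h and 1.75, 2.12, 2.71 and 2.73 in M1-12 h libraries, with differences of -4.59 ± 0.13 (SE, adjusted p = 2.93e-11) and -5.10 ± 0.13 (SE, adjusted p = 1.43e-11). E2f1, its close relative, measured 35.5, 37.6, 38.4 and 37.4 CPM in M0, 6.36, 4.86, 6.77 and 5.78 in M1-8 h and 17.1, 17.9, 16.98 and 17.2 in M1-12 h libraries. The 3 time points did not overlap: it fell by 2.47 ± 0.09 (SE, adjusted p = 1.82e-10) at 8 h and was 1.41 ± 0.09 (SE, adjusted p = 2.6e-07) higher at 12 h than at 8 h, the largest rise of any member between these times. At 12 h it was still below M0 (-1.06 ± 0.09 SE, adjusted p = 2.33e-07), but with TMM scaling this was -0.20 and not called. The checkpoint kinase Chek1, with 3 to 17 reads per LPS library, kept 15.00% and 9.68%, and Brca1, which acts in repair, 17.9% and 23.8% of their M0 levels. Brca1 measured 24.8, 8.69, 23.4 and 25.05 CPM in M0, 3.11, 1.95, 4.32 and 5.29 in M1-8 h and 4.78, 3.37, 5.54 and 5.798 in M1-12 h libraries, with the lowest M0 value in wt replicate 2. The differences were -2.15 ± 0.25 (SE, adjusted p = 5.41e-06) at 8 h and -1.79 ± 0.25 (SE, adjusted p = 2.74e-05) at 12 h.

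Ccne1, the cyclin that drives cells into S phase, was the only S phase member called higher, at either time (with TMM scaling Mcm10 and Gins2 were called higher at 8 h too). It measured 3.86, 2.400, 4.22 and 4.19 CPM in M0, 7.06, 10.6, 8.22 and 6.24 in M1-8 h and 12.2, 19.2, 11.96 and 11.6 in M1-12 h libraries. All LPS libraries were above all M0 libraries, and those of 12 h above those of 8 h, with differences of 0.95 ± 0.17 (SE, adjusted p = 0.000221) at 8 h, 1.65 ± 0.17 (SE, adjusted p = 1.87e-06) at 12 h and 0.70 ± 0.17 (SE, adjusted p = 0.00414) between them. With TMM scaling the first 2 were 1.56 and 2.38. Its paralog Ccne2 had 24 to 94 reads per library, at 0.767 to 1.76 CPM at M0 and 0.410 to 0.842 CPM at M1-8 h, with overlapping libraries. It was called lower at 8 h (-0.54 ± 0.11 SE, adjusted p = 0.000741), but not with TMM scaling (-0.17), and shares 17.4% of its exon bases with Ints8 on the opposite strand.

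**Figure D4:**
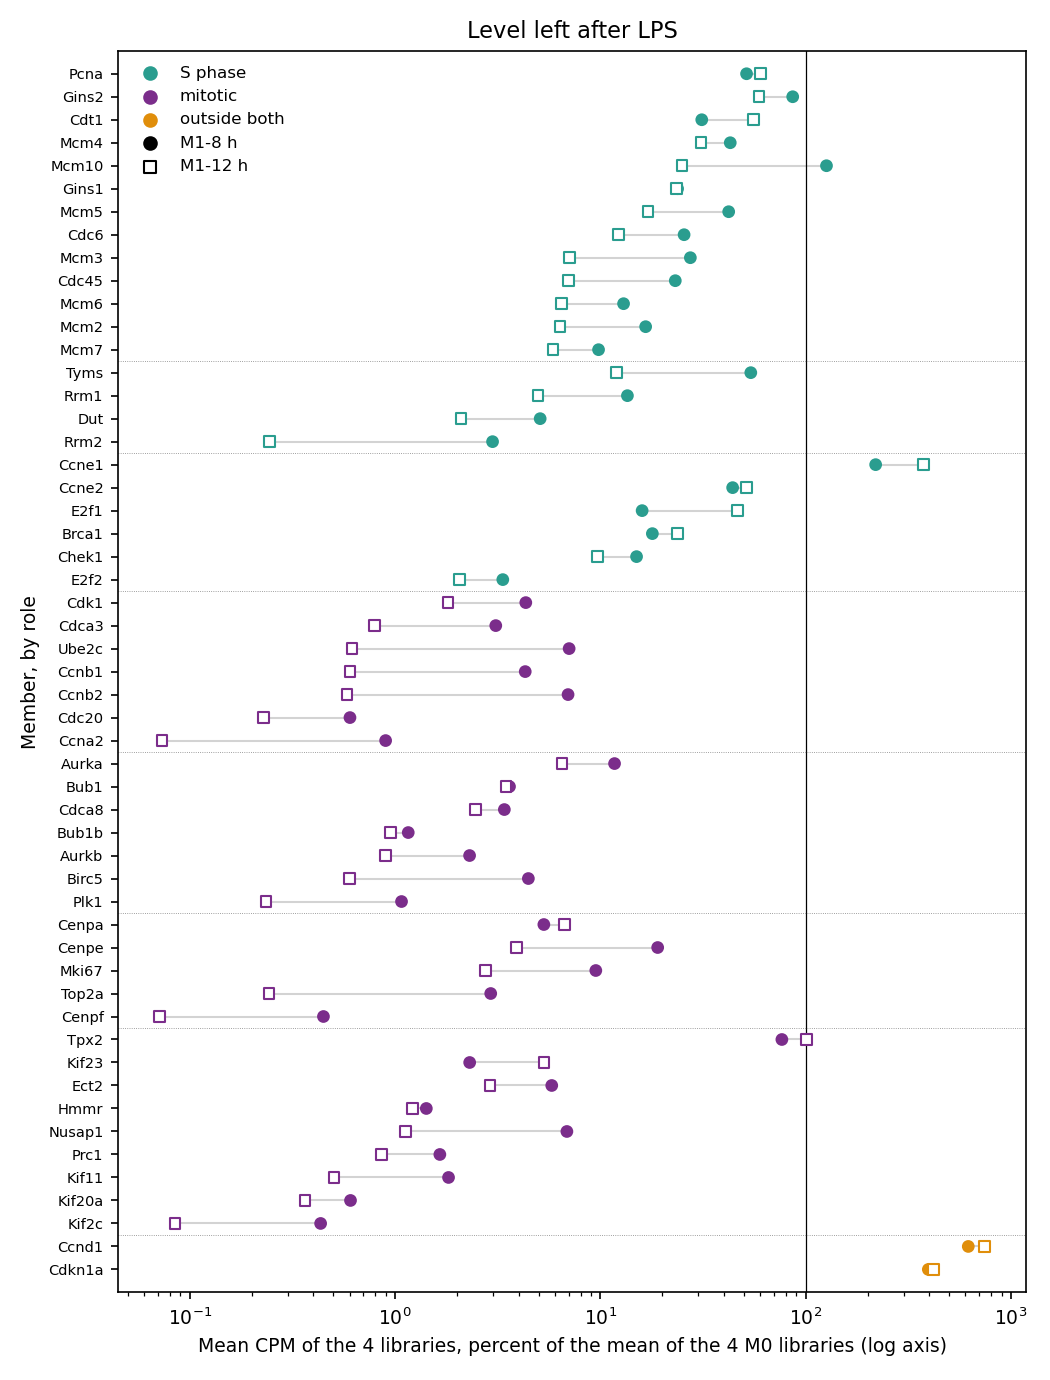
Mean CPM of the 4 M1-8 h (filled circles) and 4 M1-12 h libraries (open squares) of each member as percent of the mean of the 4 M0 libraries, on a log axis, by role from origin licensing (top) to Ccnd1 and Cdkn1a (bottom). S phase members (green) spread from below 1% to above 100%, while all mitotic members (purple) but Tpx2 lie below 20% at 8 h and below 7% at 12 h.

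The 7 genes of the mitotic cyclins, Cdk1 and the anaphase-promoting complex were all called lower by at least 8-fold at both times, with medians of -4.29 and -5.99. Cdk1 itself, the kinase that starts mitosis, measured 128, 65.8, 128 and 122 CPM in M0, 5.65, 2.19, 6.58 and 4.76 in M1-8 h and 1.59, 2.24, 2.06 and 2.14 in M1-12 h libraries. Its differences were -4.29 ± 0.24 (SE, adjusted p = 8.11e-09) and -5.17 ± 0.24 (SE, adjusted p = 1.57e-09). Ccna2 (cyclin A) measured 145, 64.8, 129 and 133 CPM in M0, 0.969, 0.278, 1.299 and 1.702 in M1-8 h and 0.0575, 0.0794, 0.104 and 0.104 in M1-12 h libraries, and its 12 h values rest on 3 to 6 reads per library. Its differences were -5.84 ± 0.21 (SE, adjusted p = 2.52e-10) and -6.71 ± 0.21 (SE, adjusted p = 8.71e-11), and it shares 12.5% of its exon bases with Exosc9 on the opposite strand. Cdc20, the activator of the anaphase-promoting complex, measured 110.4, 68.7, 106 and 104 CPM in M0, 0.727, 0.2599, 0.718 and 0.6404 in M1-8 h and 0.2302, 0.238, 0.229 and 0.191 in M1-12 h libraries. Most of its fall was there at 8 h (-5.94 ± 0.14 SE, adjusted p = 8.95e-12), and it was -6.31 ± 0.14 (SE, adjusted p = 5.94e-12) at 12 h.

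The cyclins B and Ube2c, the ubiquitin-conjugating enzyme of the anaphase-promoting complex, fell in 2 steps. Ccna2 did so by reads as well, with 15 to 93 per library at M1-8 h and 3 to 6 at M1-12 h. The log2(CPM + 1) scale understates that later fall of Ccna2. Ccnb2 measured 169.9, 106, 166 and 159 CPM in M0, 13.5, 4.902, 13.2 and 10.3 in M1-8 h and 0.921, 0.635, 0.979 and 0.972 in M1-12 h libraries. Its difference between 12 h and 8 h was -2.53 ± 0.24 (SE, adjusted p = 5.27e-06), after -3.78 ± 0.24 (SE, adjusted p = 2.38e-08) between 8 h and M0. Ube2c measured 119, 69.2, 118 and 114 CPM in M0, 9.12, 3.55, 9.45 and 7.46 in M1-8 h and 0.595, 0.357, 0.979 and 0.6596 in M1-12 h libraries, with a difference of -3.70 ± 0.23 (SE, adjusted p = 2.26e-08) at 8 h and of -2.29 ± 0.23 (SE, adjusted p = 8.99e-06) between 8 h and 12 h. Ube2c shares 22.8% of its exon bases with Tnnc2 on the opposite strand. Ccnb1 kept 4.303% and 0.604%, and Cdca3 3.09% and 0.792%, of their M0 levels.

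All 7 mitotic kinases and spindle checkpoint genes were called lower at both times, with medians of -4.51 and -5.23. Plk1, a kinase needed to build the spindle, measured 115, 68.5, 121 and 110.2 CPM in M0, 1.15, 0.724, 1.47 and 1.12 in M1-8 h and 0.211, 0.139, 0.312 and 0.312 in M1-12 h libraries, with differences of -5.61 ± 0.15 (SE, adjusted p = 1.77e-11) and -6.37 ± 0.15 (SE, adjusted p = 6.97e-12). Bub1b, which holds back anaphase until chromosomes are attached, measured 184, 93.1, 182 and 173 CPM in M0, 1.796, 1.52, 1.88 and 2.12 in M1-8 h and 1.59, 1.19, 1.62 and 1.58 in M1-12 h libraries. Its 8 h and 12 h libraries overlapped, at -5.76 ± 0.17 (SE, adjusted p = 4.4e-11) and -5.94 ± 0.17 (SE, adjusted p = 3.67e-11) against M0. Bub1, its partner, kept 3.61% and 3.47%, whereas Birc5, the chromosomal passenger protein survivin, went from 4.46% to 0.601%. Aurka, the centrosomal Aurora kinase, kept most in this group (11.7% and 6.499%), and its passenger relative Aurkb kept 2.31% and 0.897%, with the passenger subunit Cdca8 at 3.405% and 2.47%.

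All 5 kinetochore and chromosome genes were called lower at both times, with medians of -3.97 and -5.03. Top2a, the topoisomerase that untangles chromosomes, measured 326, 129, 298 and 328 CPM in M0, 6.903, 2.71, 11.5 and 10.4 in M1-8 h and 0.7097, 0.457, 0.7499 and 0.712 in M1-12 h libraries. The difference at 12 h, -7.26 ± 0.27 (SE, adjusted p = 3e-10), followed -4.98 ± 0.27 (SE, adjusted p = 7.07e-09) at 8 h. Mki67, whose protein Ki-67 is the usual marker of dividing cells, measured 511, 282, 560.3 and 583 CPM in M0, 36.9, 47.8, 39.1 and 60.03 in M1-8 h and 13.4, 11.1, 15.1 and 13.8 in M1-12 h libraries, with differences of -3.34 ± 0.18 (SE, adjusted p = 6.58e-09) and -5.03 ± 0.18 (SE, adjusted p = 2.21e-10). Cenpf, a kinetochore protein, had 1527 to 3106 reads per library at M0, 6 to 20 at M1-8 h and 1 or 2 at M1-12 h, for which no fold is given. Cenpe kept 19.01% at 8 h and 3.91% at 12 h, and Cenpa, the histone of centromeres, 5.303% and 6.68%.

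Of the 9 spindle and cytokinesis genes, 8 were called lower at both times, each by at least 8-fold, and Tpx2 was not called. Kif20a, a motor of the spindle midzone, had the deepest fall of any member at 8 h on the log2(CPM + 1) scale, although Kif2c and Cenpf kept less of their M0 CPM (0.434% and 0.448%, against 0.606%). It measured 194, 116, 191 and 183 CPM in M0, 1.21, 0.706, 1.06 and 1.17 in M1-8 h and 0.422, 0.516, 0.7499 and 0.798 in M1-12 h libraries, with differences of -6.38 ± 0.14 (SE, adjusted p = 5.75e-12) and -6.71 ± 0.14 (SE, adjusted p = 4.16e-12), and shares 29.3% of its exon bases with Cdc23 on the opposite strand. Kif2c, a motor that takes microtubules apart, measured 84.6, 46.4, 84.9 and 78.5 CPM in M0, 0.262, 0.111, 0.427 and 0.476 in M1-8 h and 0.0575, 0.0595, 0.0625 and 0.0694 in M1-12 h libraries, where 12 h stands for 3 or 4 reads per library. The differences were -5.79 ± 0.15 (SE, adjusted p = 1.72e-11) and -6.09 ± 0.15 (SE, adjusted p = 1.24e-11). Kif23, a motor of the midzone needed to part the daughter cells, measured 80.3, 43.6, 74.4 and 81.7 CPM in M0, 1.49, 1.39, 1.73 and 1.85 in M1-8 h and 3.66, 2.64, 4.71 and 3.89 in M1-12 h libraries. After it fell by 4.72 ± 0.16 (SE, adjusted p = 1.54e-10) it was the only mitotic member called higher at 12 h than at 8 h (0.84 ± 0.16 SE, adjusted p = 0.00102). The motor Kif11 kept 1.82% and 0.504%, and the cytokinesis genes Prc1 1.65% and 0.859% and Ect2 5.79% and 2.89%. The spindle proteins Nusap1 and Hmmr kept 6.87% and 1.42% at 8 h, and 1.12% and 1.21% at 12 h.

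Tpx2, the activator of Aurka on the spindle, stood apart from the rest of the mitotic members. It measured 148, 80.3, 139 and 142 CPM in M0, 91.5, 104, 91.4 and 103 in M1-8 h and 132, 136, 119 and 128 in M1-12 h libraries. All 4 M1-12 h libraries were above all 4 M1-8 h libraries, and both overlapped M0 through wt M0 replicate 2. The differences from M0 were -0.34 ± 0.15 (SE, adjusted p = 0.0448) and 0.05 ± 0.15 (SE, adjusted p = 0.748). With TMM scaling they were 0.42, not called, and 0.94, called higher, so the direction at 8 h depends on the scaling. Without wt M0 replicate 2 they were -0.56, called lower, and -0.17, not called. No annotated gene shares exon bases with Tpx2.

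Ccnd1 and Cdkn1a, the members outside both phases, rose. Ccnd1, the cyclin that carries growth signals to the G1 kinases, measured 17.8, 29.2, 23.7 and 26.5 CPM in M0, 159, 142, 156 and 144 in M1-8 h and 192, 159, 188 and 184 in M1-12 h libraries. Every LPS library was above every M0 library, by 2.60 ± 0.13 (SE, adjusted p = 2.66e-09) and 2.86 ± 0.13 (SE, adjusted p = 1.15e-09). Cdkn1a encodes p21, an inhibitor of cyclin-dependent kinases. It measured 201, 247, 225 and 208 CPM in M0, 957, 994, 792 and 743 in M1-8 h and 951, 1095, 806 and 833 in M1-12 h libraries. This was a rise of 1.97 ± 0.08 (SE, adjusted p = 3.79e-10) at 8 h and 2.05 ± 0.08 (SE, adjusted p = 2.78e-10) at 12 h, and the M1-8 h and M1-12 h libraries overlapped.

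**Figure D5:**
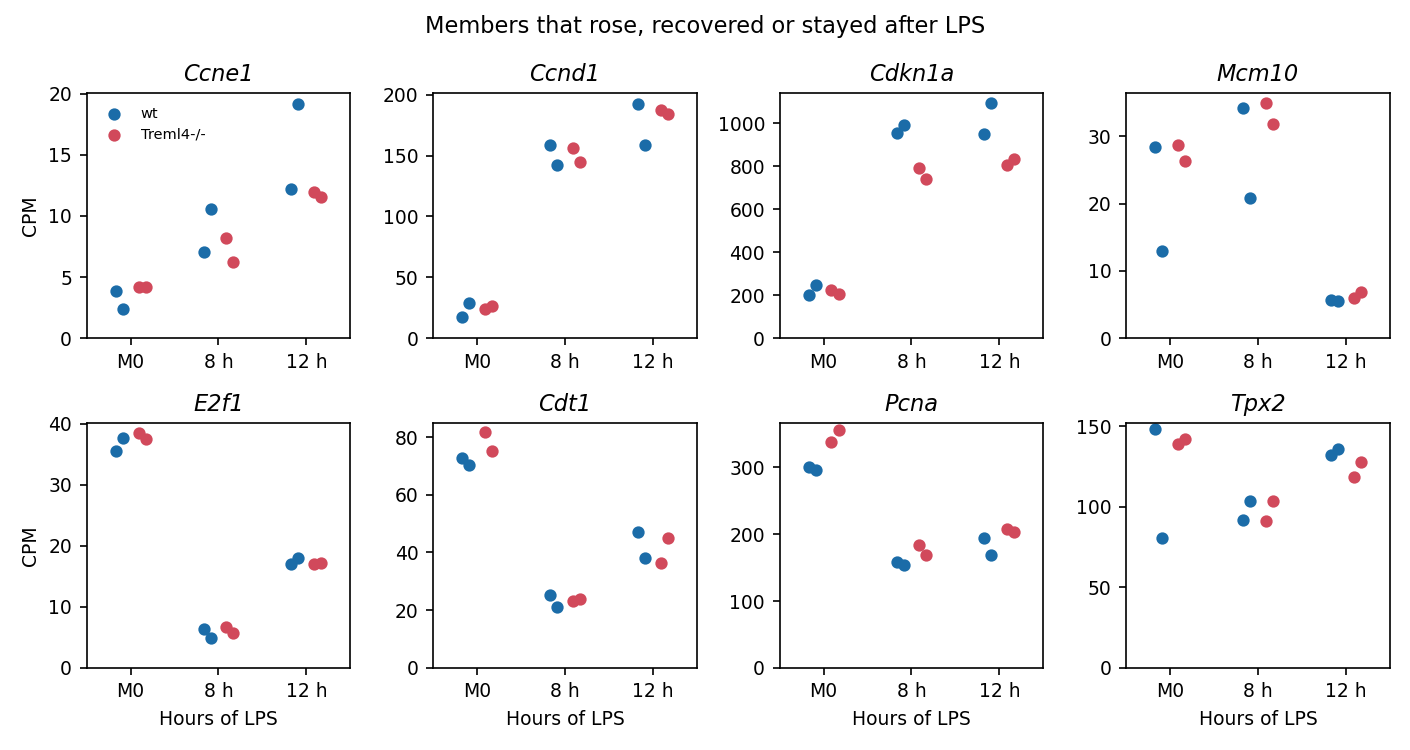
CPM in each library of 8 members that rose, recovered or stayed after LPS, wt in blue and Treml4-/- in red, each panel with its own axis from 0. Ccne1, Ccnd1 and Cdkn1a lie above M0 at both times, Mcm10 drops only at 12 h, E2f1 and Cdt1 are higher at 12 h than at 8 h, and the low M0 points of Mcm10 and Tpx2 are wt M0 replicate 2.

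Between 8 h and 12 h of LPS, a comparison that uses no M0 library, 29 members were called lower and 4 higher, beside 18.7% and 13.5% of all genes. They were 12 S phase and 17 mitotic members lower, and Cdt1, Ccne1, E2f1 and Kif23 higher. With TMM scaling 27 were lower and 5 higher, beside 14.9% and 18% of all genes. Within wt 19 were lower and 4 higher, beside 17.6% and 14% of all genes, and within Treml4-/- 27 and 4, beside 19.4% and 12.9%. The median differences were -0.49 for S phase and -0.63 for mitotic members. This scale understates the further fall of mitotic members that were already near or below 1 CPM at 8 h. By CPM, the median share of the M0 level went from 3.25% to 0.878% for mitotic members. For S phase members it went from 23.8% to 12.3%. By role, the mitotic cyclins, Cdk1 and the anaphase-promoting complex had the largest share called lower (6 of 7, median -1.22), and the G1/S cyclins, E2F factors and checkpoint the smallest among S phase and mitotic roles (1 of 6, median 0.23). When 1 library was left out, 23 to 30 members were called lower.

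No member was called between the genotypes. At M0, M1-8 h and M1-12 h, 0 of 53 members were called by limma, beside 0.0993%, 0.091% and 0.132% of all genes, and 10, 8 and 1 had an unadjusted p under 0.05, beside 3.35%, 21% and 7.55% of all genes. The log2 differences, wt minus Treml4-/-, ranged from -0.72 to 0.04 at M0, from -1.14 to 0.35 at M1-8 h and from -0.41 to 0.35 at M1-12 h. Their SE ran from 0.09 to 0.39 with a median of 0.25, so that even a sizeable difference in a single member may not have been detectable. The difference of -1.14 at M1-8 h, that of Top2a, was not called. A count of 0 called therefore does not show equal levels. The lowest adjusted p were 0.788, 0.155 and 0.475. TMM scaling, median of ratios scaling and voom also called 0 members at each time.

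At M0, 52 of 53 members were lower in wt, with medians of -0.38 for S phase and -0.40 for mitotic members, beside -0.03 over all genes. That direction rested on wt M0 replicate 2. Without it the medians were -0.057 and 0.045 and 0 members were called, whereas without wt M0 replicate 1 they were -0.70 and -0.84 and 16 members were called lower in wt, beside 1.69% of all genes. Both wt libraries lay below both Treml4-/- libraries for 18 of 53 members, beside 18% of all genes, and above them for 0, beside 10.8%. At M1-8 h, 49 of 53 were lower in wt, with medians of -0.26 and -0.42, beside -0.07 over all genes, and both wt libraries lay below both Treml4-/- libraries for 22 of 53 members and above them for 1, beside 33.9% and 18%. Here wt M1-8 h replicate 2 was below replicate 1 for 48 of 53 members, beside 50.8% of all genes, and without it the medians were -0.019 and -0.0945. At M1-12 h the medians were -0.11 and -0.12, beside -0.05 over all genes, and both wt libraries lay below both Treml4-/- libraries for 29 of 53 members and above them for 4, beside 30.8% and 12.3% of all genes.

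For Cdkn1a, named here after its values were seen, both wt libraries were above both Treml4-/- libraries at M1-8 h (0.35 ± 0.11 SE, adjusted p = 0.169) and at M1-12 h (0.32 ± 0.11 SE, adjusted p = 0.475), and at M0 they overlapped (0.04 ± 0.11 SE, adjusted p = 1). For Nusap1 and Top2a, the wt values were below those of Treml4-/- cells at M1-8 h (-0.92 ± 0.26 SE, adjusted p = 0.155 and -1.14 ± 0.39 SE, adjusted p = 0.175), likewise not called and chosen after their values were seen.

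No member was called in the difference between the LPS responses of the genotypes either. For the difference of the responses, 0 of 53 members were called at 8 h and at 12 h, beside 0.00827% of all genes at each, and 0 and 1 had an unadjusted p under 0.05, beside 6.67% and 3.82% of all genes. The wt response minus the Treml4-/- response was negative for 18 of 53 members at 8 h (median 0.11) and for 3 of 53 at 12 h (median 0.31). These differences use wt M0 replicate 2, so their direction cannot be told from its low values. Within wt alone 45 members were called lower and 3 higher at 8 h, beside 60.6% and 16.3% of all genes, and within Treml4-/- alone 48 and 3, beside 58.1% and 17.7%. At 12 h these were 47 and 3 in wt, beside 60.4% and 16.2%, and 49 and 3 in Treml4-/- cells, beside 59.6% and 16.1%. Without wt M0 replicate 1, the wt M0 group was wt M0 replicate 2 alone, the library with low values of most members. In that fit the wt response minus the Treml4-/- response at 12 h was 1.11 for Hmmr, 1.202 for Kif11 and 0.92 for Tpx2. Such a fit cannot tell a difference between the genotypes from the low values of that library.

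Other genes of the same pathways, from lists written beside the members, were counted in the same fit. Of 46 other replication genes 45 were tested, and 38 were called lower and 2 higher at 8 h, beside 59.8% and 17.1% of all genes, and 37 and 3 at 12 h, beside 60.3% and 16.3%, with medians of -1.70 and -1.97. With TMM scaling 33 were called lower and 6 higher at 8 h, beside 32.2% and 30.4% of all genes, and 31 and 6 at 12 h, beside 31.6% and 33.7%. The deepest called falls on the log2(CPM + 1) scale were Clspn, a mediator of the replication checkpoint, which had 10.4 to 28.9 CPM at M0 and 0.204 to 0.889 CPM at M1-8 h, Asf1b, a histone chaperone (-3.63 ± 0.19 SE, adjusted p = 5.38e-09 at 8 h), and the thymidine kinase Tk1 (-4.94 ± 0.25 SE, adjusted p = 3.2e-09 at 12 h). The 2 called higher at 8 h were Mcmbp, a binding partner of the MCM helicase, which had 55.5 to 62.8 CPM at M0 and 320.0 to 361 CPM at M1-8 h, and Timeless, a protein of the replication fork (1.64 ± 0.18 SE, adjusted p = 4.05e-06 at 8 h).

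All 50 other mitotic genes were tested, and 49 were called lower and 1 higher at each time, with medians of -3.37 at 8 h and -3.93 at 12 h. The shares of all genes were those given for the replication genes, and with TMM scaling 46 were called lower at 8 h and 49 at 12 h, with 1 higher at each time. Anln, a scaffold of the cleavage furrow, had 50.02 to 107 CPM at M0 and 0.149 to 0.567 CPM at M1-8 h. The phosphatase Cdc25b (-5.74 ± 0.15 SE, adjusted p = 1.66e-11 at 8 h) and Racgap1, which acts in the midzone (-6.62 ± 0.22 SE, adjusted p = 1.36e-10 at 12 h), were also among the 2 largest falls at those times on the log2(CPM + 1) scale. Pttg1, or securin, the anaphase inhibitor that Cdc20 targets, was the 1 called higher, with 18.1 to 21.5 CPM at M0, 107 to 119 CPM at M1-8 h and 77.1 to 88.1 CPM at M1-12 h.

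Of the 36 G1 regulators and cell cycle inhibitors 34 were tested. At 8 h 17 were called lower and 8 higher, beside 59.8% and 17.1% of all genes, and at 12 h 21 and 8, beside 60.3% and 16.3%. The medians were -0.59 and -0.73, close to those of all genes. With TMM scaling the counts were 14 lower and 13 higher at 8 h, beside 32.2% and 30.4% of all genes, and 14 and 12 at 12 h, beside 31.6% and 33.7%, and the medians were 0.07 and 0.06, so that the direction of the list as a whole depends on the scaling. Ccnd2, a further D cyclin, was higher at both times, with 0.177 to 0.285 CPM at M0, 90.8 to 158 CPM at M1-8 h and 45.1 to 97.4 CPM at M1-12 h. Mdm2, the ligase for p53, was higher as well and had 92.3 to 117 CPM at M0, 565 to 1026 CPM at M1-8 h and 549 to 689.7 CPM at M1-12 h. The kinase inhibitor Cdkn2c was lower, with 37.9 to 67.3 CPM at M0, 0.949 to 1.13 CPM at M1-8 h and 0.441 to 0.667 CPM at M1-12 h. Tfdp2, a partner of E2F factors, was lower at 8 h (-3.29 ± 0.11 SE, adjusted p = 1.04e-10), and E2f7, a repressor among them, at 12 h (-3.26 ± 0.19 SE, adjusted p = 1.35e-08).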

How the data were processed

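Stranded poly(A) RNA libraries (126 bp, paired ends) were made from 12 BMDM samples. The authors aligned the reads with STAR to mm10 in a workflow that also names RnaSeqC, Subread, DESeq2, edgeR and limma. The strand setting of the counting was not given in the sources used here. They deposited log2 CPM per gene, and the values show a prior of 0.25 reads: without it, 100% of values in every library were whole reads (within 0.01). Depth was 48008751 to 58500792 reads per library. Positions and shared exons are from GENCODE M21 (GRCm38, the build of mm10), promoters from RefSeq GRCm38.p6.

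The planned test assumed CPM, so CPM were recovered from the log2 values and tested as log2(CPM + 1) with limma 3.58.1 (R 4.3.3): 6 group means, a variance trend, 6 residual degrees of freedom, genes that reached 1 CPM in 2 or more libraries, and Benjamini-Hochberg adjustment over all 12086. The labels do not say whether replicates came from separate animals, so p-values measure the spread between these samples. A gene was called at an adjusted p under 0.05 and a fold of at least 1.4, the cutoffs of the study. The study applied them to p-values of DESeq2, another test, so the counts of calls here are not comparable with its own. The fit was run on simulated data with few changed genes and a fixed spread. Those settings differ from these data, so the run does not bear on the shift of the whole table or on uneven replicates. Full values are given for the 2 called members with the largest change each way per role and time, for the 2 largest each way between 12 h and 8 h, for Ccnd1 and Cdkn1a, and for exceptions. One gene that this rule names in another list is not reported here. The members, lists and motifs were chosen with earlier results of these data known. Python 3.11.15, pandas 2.3.3, numpy 2.4.6 and matplotlib 3.10.9 were used. Alternatives are given in the closing section.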

Additional observations from a re-analysis of the deposited data

How the results depend on the processing

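Under TMM scaling, median of ratios scaling and voom on the recovered reads, 5 members were called higher at 8 h over both genotypes and 6 in wt alone, and voom called 5 in Treml4-/- alone. At 8 h the S phase median was -0.94, -0.92 and -1.26 under these 3 settings, and the mitotic median -3.88, -3.85 and -4.24. At 12 h the S phase median was -1.06, -1.06 and -2.11, and the mitotic median -4.91, -4.88 and -5.89. The log scale and the filter also moved medians. A pseudocount of 0.1 gave -1.97 and -4.97 at 8 h and -2.57 and -6.64 at 12 h for S phase and mitotic members, the deposited log2 CPM gave -2.03 and -5.01, then -3.00 and -6.79, and a filter at 5 CPM gave an S phase median of -2.46 at 12 h. Differences turned positive under TMM, median of ratios and voom for Gins2 (0.53, 0.56 and 0.57 at 8 h, and 0.15, 0.11 and 0.17 at 12 h), for Tpx2 at 8 h (0.42, 0.45 and 0.43) and for Pcna at 12 h (0.16, 0.11 and 0.16), and under TMM and voom for Cdt1 at 12 h (0.037 and 0.040). Without a filter, 4 of the calls between 12 h and 8 h (Gins2, Aurkb, Prc1 and Ect2) were lost. The cause was not tested.

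Leaving out 1 library at a time, 46 to 48 members were called lower and 3 to 4 higher at 8 h, 48 to 49 and 3 at 12 h, and 23 to 30 and 4 between 12 h and 8 h. Within wt these were 44 to 48 and 3 to 4 at 8 h and 47 to 49 and 3 to 4 at 12 h, and within Treml4-/- 46 to 48 and 2 to 3 at 8 h and 48 to 49 and 3 at 12 h. The medians ranged from -1.80 to -1.53 (S phase) and -4.78 to -4.36 (mitotic) at 8 h, and from -2.14 to -1.51 and -5.72 to -5.28 at 12 h. Between genotypes 0 to 16 members were called at M0, 0 to 1 at M1-8 h, 0 at M1-12 h by limma, and 0 and 0 to 3 in the difference of responses at 8 h and 12 h. The 1 at M1-8 h was Cenpe, without Treml4-/- M1-8 h replicate 1. The genotype medians ranged at M0 from -0.70 to -0.057 (S phase) and -0.84 to 0.045 (mitotic, the positive value without wt M0 replicate 2), at M1-8 h from -0.48 to -0.019 and -0.70 to -0.0945, and at M1-12 h from -0.11 to -0.08 and -0.18 to -0.06. The 12 h difference of Tpx2 ranged from -0.17, without wt M0 replicate 2, to 0.27. In such fits the lone library of a group is assumed to vary like the others.

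The correlations of replicate deviations between groups ran from -0.27 to 0.46, which does not settle whether samples of the same replicate number were paired. Within a genotype they reached 0.46 (Treml4-/- M0 with M1-8 h) and 0.41 (wt M1-8 h with M1-12 h). Treml4-/- M1-8 h with M1-12 h gave -0.27. A block for each replicate within a genotype left the call unchanged for all 139 LPS differences of members that were followed. With the replicate number as a block, 47 members were called lower at 8 h, 48 at 12 h and 29 between them, and 0 between genotypes by limma at each time. Depth limits the weakest members, with Cenpf at 1 or 2 reads per library at M1-12 h.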
